A study of Arabidopsis thaliana with 12 samples.

Results

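The 9 genes described here, all of nucleolar ribosome biogenesis, were followed in Arabidopsis embryos with different pollen donors, among 33602 genes with a deposited value in each of 12 libraries. The 9 genes were taken by name for their role in making ribosomes, by a rule that uses no measured value but was set with earlier results of these data known, and all 9 passed the filter on low values in every comparison. They are NUC1 (AT1G48920), FIB1 (AT5G52470), FIB2 (AT4G25630), NOP56 (AT1G56110), NOP5-1 (AT5G27120), CBF5 (AT3G57150), PES (AT5G14520), BOP1 (AT2G40360) and APUM23 (AT1G72320). The study isolated embryos at the torpedo stage from seeds of 4 crosses and sequenced their poly(A) RNA, to ask how embryo transcriptomes differ when the endosperm, the nourishing tissue of the seed, does or does not form cells.

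All 4 crosses used a diploid Col-0 mother, and only the pollen donor differed. The 3x nrpd1 embryos had a tetraploid pollen donor that carried the nrpd1 mutation (pol4 in the sample labels), which removes the largest subunit of the plant-specific RNA polymerase IV. The 3x wt embryos had a tetraploid Col-0 donor, the 2x nrpd1 embryos a diploid nrpd1 donor and the 2x wt embryos a diploid Col-0 donor. By the labels the 3x nrpd1 and 3x wt embryos were taken at 8 days after pollination (DAP) and the 2x nrpd1 and 2x wt embryos at 6 DAP, although the study's results text gives 6 DAP for 3x nrpd1. Ploidy and age therefore cannot be told apart in 3x against 2x comparisons. Each group had 3 replicates from separate crosses, each a pool of about 150 embryos. The study describes 3x wt seeds as largely without endosperm cells and 3x nrpd1 seeds as mostly with them. The mother's NRPD1 copy was intact in every embryo, so the NRPD1 level checks no label. In RPKM it was 3.42, 3.61 and 1.78 in 3x nrpd1, 1.46, 2.17 and 1.62 in 3x wt, 4.48, 3.37 and 2.82 in 2x nrpd1, and 2.69, 2.42 and 2.43 in 2x wt.

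The nucleolus is the part of the nucleus in which RNA polymerase I copies the ribosomal RNA genes and in which the transcript is cut, modified and packed with ribosomal proteins. Small nucleolar ribonucleoproteins (snoRNPs) of the box C/D kind guide methylation of this RNA and those of the box H/ACA kind guide its pseudouridylation. Growing tissues, young embryos among them, are known for high levels of the proteins of this pathway.

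Promoters of Arabidopsis ribosomal genes are known to hold a pair of short elements, the telo box and the site II element. The windows from 250 bases before to 30 bases after the annotated start, 280 bases in all, were read for each member from the RefSeq TAIR10.1 genome. The telo box was searched as AAACCCTA and the site II element as TGGGCC or TGGGCT, on both strands, with matches in capitals. The 5 windows below belong to the 3 members that passed the interaction test described later and to the fibrillarin pair, 1 with both elements and 1 with neither. The windows of FIB1 (chr5:21293897-21294176, plus strand), FIB2 (chr4:13073840-13074119, plus strand), NOP56 (chr1:20986923-20987202, minus strand), NOP5-1 (chr5:9540611-9540890, plus strand) and CBF5 (chr3:21156046-21156325, minus strand) read as follows, 5′ to 3′ on the strand of the gene.
FIB1: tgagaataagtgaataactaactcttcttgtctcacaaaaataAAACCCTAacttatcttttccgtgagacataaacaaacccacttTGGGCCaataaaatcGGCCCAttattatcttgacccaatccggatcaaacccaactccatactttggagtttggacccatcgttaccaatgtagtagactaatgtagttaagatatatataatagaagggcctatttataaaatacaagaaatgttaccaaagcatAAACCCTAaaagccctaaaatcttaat
FIB2: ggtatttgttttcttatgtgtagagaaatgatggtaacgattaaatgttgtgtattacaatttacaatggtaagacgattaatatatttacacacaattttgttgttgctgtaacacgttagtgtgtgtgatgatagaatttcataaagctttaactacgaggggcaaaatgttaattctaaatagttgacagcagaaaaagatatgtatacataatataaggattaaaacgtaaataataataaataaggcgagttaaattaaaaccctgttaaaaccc
NOP56: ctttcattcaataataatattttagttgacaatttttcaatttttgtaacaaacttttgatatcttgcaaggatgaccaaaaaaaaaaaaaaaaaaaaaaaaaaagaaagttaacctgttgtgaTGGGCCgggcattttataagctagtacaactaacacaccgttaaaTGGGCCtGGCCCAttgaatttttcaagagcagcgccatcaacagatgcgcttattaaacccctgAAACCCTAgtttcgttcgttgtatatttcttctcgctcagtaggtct
NOP5-1: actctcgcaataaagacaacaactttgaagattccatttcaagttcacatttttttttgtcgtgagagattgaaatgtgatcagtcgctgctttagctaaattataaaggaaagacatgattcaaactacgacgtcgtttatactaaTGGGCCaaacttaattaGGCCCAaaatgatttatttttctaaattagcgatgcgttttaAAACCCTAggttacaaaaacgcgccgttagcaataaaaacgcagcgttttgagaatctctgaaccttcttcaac
CBF5: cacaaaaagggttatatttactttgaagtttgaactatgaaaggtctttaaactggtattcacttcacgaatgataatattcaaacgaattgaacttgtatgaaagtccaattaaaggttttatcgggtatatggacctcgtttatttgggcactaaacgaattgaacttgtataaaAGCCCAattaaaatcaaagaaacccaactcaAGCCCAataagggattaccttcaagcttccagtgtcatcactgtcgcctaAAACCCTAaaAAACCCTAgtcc

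FIB1 held 2 telo boxes, which begin at -207 and 4 relative to the start, and 2 site II elements. CBF5 also held 2 telo boxes, at 9 and 19, both after the start. NOP56 had 1 telo box at -17 and 3 site II elements, and NOP5-1 had 1 telo box at -44 and 2 site II elements. The FIB2 window held neither. It ends in AAACCC, the first letters of the telo box, and the bases past its edge were not searched. Across the 9 members, 6 windows (66.7%) held a telo box, against 5.47% of the windows of 27443 protein-coding genes. A site II element was in 8 of 9 windows (88.9%), against 20.9% of all, and both together were in 6 (66.7%), against 1.89% of all. PES and APUM23 had site II elements without a telo box. The window of NOP56 also overlaps the gene AT1G56120, that of NOP5-1 overlaps AT5G27110 and that of PES overlaps AT5G14530. A match of letters describes the sequence and was not tested as a binding site.

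The deposited unit is RPKM, reads per kilobase of transcript, scaled to a total per library, so levels of different genes are given per length. The steps between low RPKM values imply that the values were divided by totals of about 6851605 to 13602765 reads per library. These totals are below the mapped reads that the study lists for each library, the reason is not known here, and read numbers are therefore approximate. On this estimate there were about 191 reads behind the lowest member value (APUM23 in 3x nrpd1 replicate 3) and about 13537 behind the best covered one (NUC1 in 2x wt replicate 2). Replicates correlated with r of 0.937 to 0.988 over genes on the log scale. The library 3x nrpd1 replicate 3 stood apart, since its deviation from the median of the other 11 libraries correlated with transcript length (Spearman rho -0.63 over 18475 genes), against -0.10 to 0.25 in the other 11. Summed embryo markers (14 genes) spanned, in RPKM, 355 to 477 in 3x nrpd1, 259.7 to 371 in 3x wt, 430.1 to 568 in 2x nrpd1 and 452 to 506 in 2x wt. The largest part in every library was LEC1, at 65.2 to 101 in 3x wt and 140 to 208 in 2x wt. Single embryo markers went both ways. In 3x wt against 2x wt, 4 of 13 tested were lower and 3 higher at a limma adjusted p under 0.05. Of all tested genes 24.6% were lower and 26.7% higher in this comparison. Summed endosperm markers (13 genes) spanned 22.5 to 76.1 in 3x nrpd1, 86.6 to 94.3 in 3x wt, 54.1 to 65.4 in 2x nrpd1 and 54.9 to 66.7 in 2x wt, nearly all of it SUC5. Of these 13, 10 were under 1 RPKM in all 12 libraries, MPC at 0 in all. PHE1 was 0.994 to 3.70 in 3x nrpd1 and 1.22 to 1.96 in 3x wt, and was listed at 0 in every 2x library. ZOU was 1.65 to 2.30 in 3x nrpd1, 0 to 0.65 in 3x wt, 0.25 to 1.88 in 2x nrpd1 and 0.87 to 1.44 in 2x wt. Summed seed coat markers (11 genes) spanned 117 to 191 in 3x nrpd1, 277 to 340 in 3x wt, 177 to 199 in 2x nrpd1 and 163 to 176 in 2x wt, mostly SBT1.7. Of the lower ones, BAN was 0.34 to 0.88 in 3x nrpd1, 3.70 to 5.84 in 3x wt, 0.66 to 2.11 in 2x nrpd1 and 0.26 to 0.65 in 2x wt, and TT10 was 0.81 to 1.003 in 3x nrpd1, 3.82 to 8.10 in 3x wt, 0.75 to 2.19 in 2x nrpd1 and 0.23 to 0.72 in 2x wt. In 3x wt against 2x wt, SBT1.7, BAN and TT10 rose and TT12 fell at a limma adjusted p under 0.05, and in 3x nrpd1 against 3x wt SBT1.7, BAN and TT10 fell. The part of these marker and length differences in the results was not tested, apart from the fits without that library and with the length trend removed.

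The members' levels spanned a wide range within each group. FIB1 and NUC1 were the most abundant in all 4 groups and overlapped each other, NOP56, CBF5 and FIB2 followed, then NOP5-1, PES and BOP1, and APUM23 was lowest. In 2x wt NUC1 ranked 249 and APUM23 6839 among all genes by mean RPKM. In RPKM as deposited, the group means of each of the 9 members ran in one order. They were lowest in 3x wt, then 3x nrpd1, then 2x nrpd1, and highest in 2x wt. The share of genes with this order was not computed. As deposited, the typical gene shifted too, by a log2 fold change of -0.16 in 3x wt against 2x wt. In 3x nrpd1 against 2x nrpd1 that shift was -0.14. After scaling, all 9 members stayed negative in 3x nrpd1 against 2x nrpd1, but FIB1 was nearly level (log2 fold change -6.3e-05). The summed level of the 9 genes was 1594 ± 93.7 RPKM in 3x nrpd1, 1031 ± 128 RPKM in 3x wt, 1935 ± 101 RPKM in 2x nrpd1 and 2112 ± 110 RPKM in 2x wt (SD, n = 3 each).

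**Figure D1:**
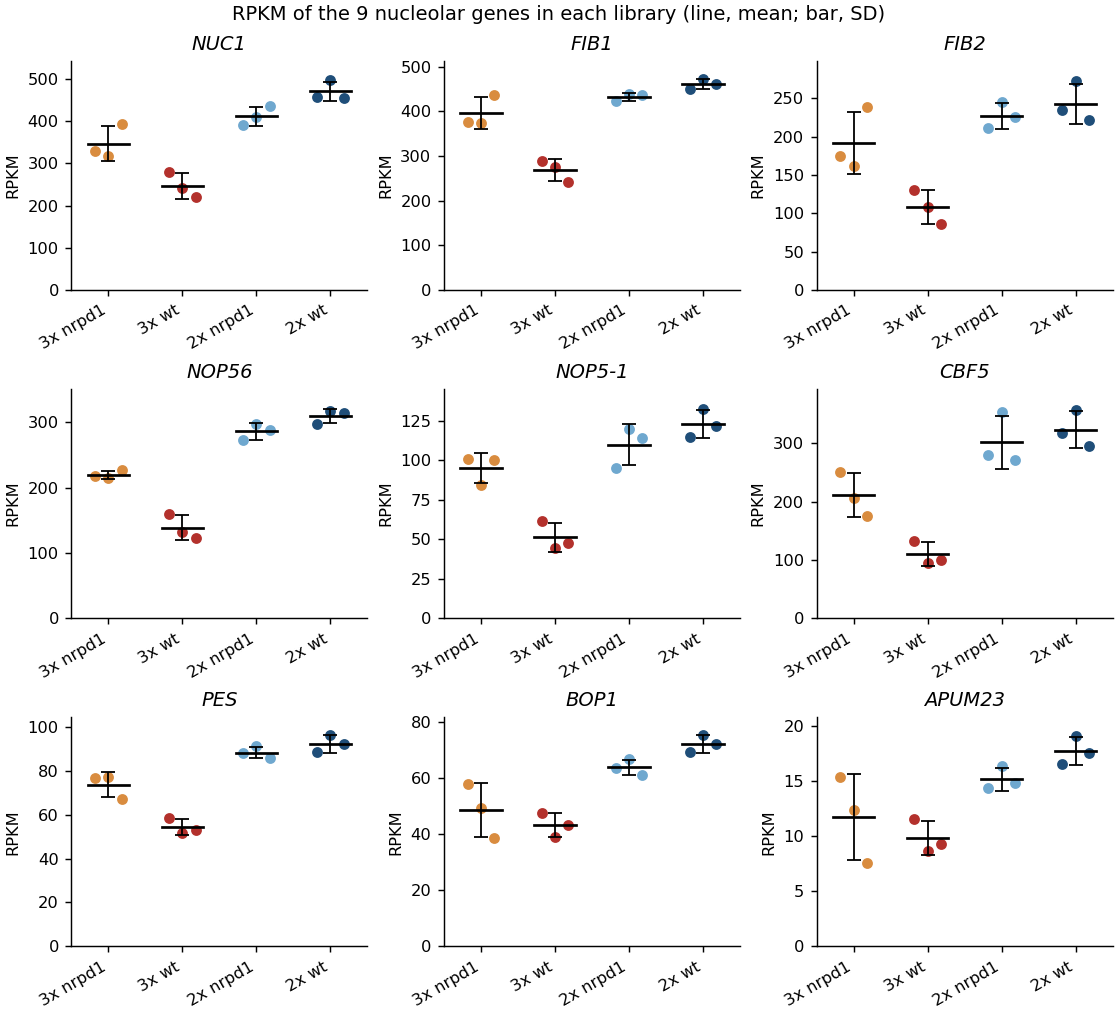
RPKM of the 9 members (1 panel each, y axis in RPKM) in the 12 libraries, with 1 point per library, a line at the group mean and a bar for the SD, in the order 3x nrpd1, 3x wt, 2x nrpd1, 2x wt. In all 9 panels the 3 points of 3x wt lie below the 3 points of 2x wt.

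The first comparison, 3x wt against 2x wt, asks how the embryo transcriptome changed with the tetraploid wild-type donor. All 9 members fell in 3x wt embryos. The fall was largest for CBF5, NOP5-1, FIB2 and NOP56 and smallest for BOP1, PES and FIB1. Because these are pooled whole embryos, fewer cells with active nucleoli and less RNA per cell cannot be told apart. Tests were run with limma on log2(RPKM + 0.5), with Benjamini-Hochberg adjustment over all genes, and log2 fold changes are on that scale.

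Among the box C/D snoRNP proteins, FIB1 and FIB2 encode fibrillarin, the enzyme that methylates ribosomal RNA. FIB1 (chr5:21294147-21296819, plus strand) had 289, 275 and 242 RPKM in 3x wt, against 450.0, 471 and 462 RPKM in 2x wt (log2 fold change -0.62, SE 0.0885, limma adjusted p = 0.000438). FIB2 (chr4:13074090-13076432, plus strand) had 131, 108 and 85.8 RPKM in 3x wt, against 234, 272 and 222 RPKM in 2x wt (log2 fold change -1.01, SE 0.145, limma adjusted p = 0.000439). For both, every 3x wt library lay below every 2x wt library.

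NOP56 and NOP5-1 (a NOP58 homolog) are the paired scaffold proteins of the same particles. NOP56 (chr1:20984273-20986952, minus strand) had 159.9, 133 and 123 RPKM in 3x wt, against 297, 317 and 315 RPKM in 2x wt (log2 fold change -1.002, SE 0.0953, limma adjusted p = 4.36e-05). NOP5-1 (chr5:9540861-9544065, plus strand) had 61.5, 44.5 and 47.4 RPKM in 3x wt, against 114, 132 and 122 RPKM in 2x wt (log2 fold change -1.10, SE 0.115, limma adjusted p = 7.01e-05). Again the groups did not overlap.

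CBF5 (also NAP57, chr3:21153815-21156075, minus strand), the dyskerin homolog, is the pseudouridine synthase of the box H/ACA particles. It had 133, 95.0 and 100.4 RPKM in 3x wt, against 317, 357 and 295 RPKM in 2x wt. Its highest 3x wt library was far below its lowest 2x wt library, and its fall was the largest among the 9 members (log2 fold change -1.40, SE 0.129, limma adjusted p = 3.53e-05).

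NUC1 (chr1:18098081-18101732, plus strand) encodes nucleolin, an abundant nucleolar protein that acts at ribosomal RNA genes and in early processing. It had 280.1, 242 and 219 RPKM in 3x wt, against 458, 497 and 455 RPKM in 2x wt (log2 fold change -0.77, SE 0.101, limma adjusted p = 0.000258).

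PES and BOP1 are, with WDR12, the subunits of the PeBoW complex that matures the RNA of the large ribosomal subunit, and APUM23 is a Pumilio-family protein of ribosomal RNA processing. PES (chr5:4680540-4684472, minus strand) had 58.7, 51.6 and 53.2 RPKM in 3x wt, against 88.4, 96.3 and 92.1 RPKM in 2x wt (log2 fold change -0.59, SE 0.081, limma adjusted p = 0.000334). BOP1 (chr2:16852880-16856771, minus strand) had 47.6, 39.0 and 43.3 RPKM in 3x wt, against 69.1, 75.2 and 72.0 RPKM in 2x wt (log2 fold change -0.57, SE 0.0888, limma adjusted p = 0.000703). APUM23 (chr1:27228059-27233167, minus strand) had 11.6, 8.65 and 9.31 RPKM in 3x wt, against 16.5, 19.1 and 17.5 RPKM in 2x wt (log2 fold change -0.67, SE 0.124, limma adjusted p = 0.00188). The 2 PeBoW subunits changed by nearly the same factor, and none of the 3 genes overlapped between the groups.

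All 9 of 9 members were thus lower at an adjusted p under 0.05, where 24.6% of 17965 tested genes were. Past a log2 fold change of -1 as well, which is the study's own rule for a call, were 4 members (FIB2, NOP56, NOP5-1 and CBF5), against 4.85% of genes. At an adjusted p under 0.05, 0 members rose, where 26.7% of genes did, and 11.1% of genes were called higher. The members' median log2 fold change was -0.77, against -0.01 over all genes. The 3x wt libraries lay below all 2x wt libraries for 9 of 9 members as deposited, which held for 39.6% of genes, and for 9 of 9 after scaling, which held for 29.3%. FIB2 and NOP56 lie at the fold threshold, and the number of calls was 2 when either 2x wt replicate 2 or 3x wt replicate 3 was left out. In these fits 678 and 818 genes were called lower, against 872 in the main fit. With RPKM as deposited the median of all genes was -0.16 and that of the members -0.93.

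**Figure D2:**
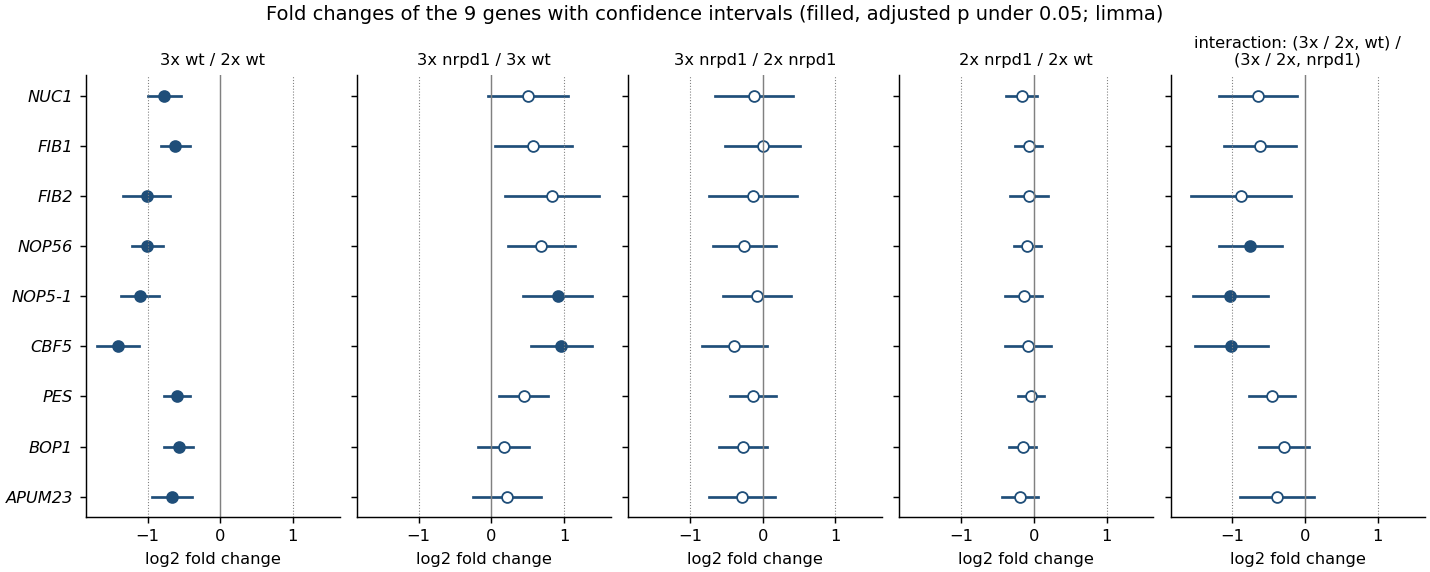
Log2 fold change of each of the 9 members in the 4 comparisons and in the interaction (3x wt over 2x wt, relative to 3x nrpd1 over 2x nrpd1), with 95% confidence intervals from limma on the log2(RPKM + 0.5) scale. Filled points have an adjusted p under 0.05 and dotted lines mark -1 and 1. All 9 intervals lie below 0 in 3x wt versus 2x wt, and all 9 include 0 in 2x nrpd1 versus 2x wt.

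The second comparison, 3x nrpd1 against 3x wt, asks what the nrpd1 pollen donor changed among embryos of the same ploidy and, by the labels, the same age. CBF5 and NOP5-1 rose in 3x nrpd1 embryos. The other 7 members had positive log2 fold changes that did not pass the test. This comparison uses the same 3x wt libraries as the first, so they are not independent of each other, and opposite signs in them are in part built in.

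CBF5 had 251, 207 and 176 RPKM in 3x nrpd1, against 133, 95.0 and 100.4 RPKM in 3x wt (log2 fold change 0.96, SE 0.183, limma adjusted p = 0.0127). NOP5-1 had 101, 84.1 and 99.9 RPKM in 3x nrpd1, against 61.5, 44.5 and 47.4 RPKM in 3x wt (log2 fold change 0.91, SE 0.207, limma adjusted p = 0.0246). Neither gene overlapped between the groups.

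For the other box C/D proteins the 3 libraries of each group were also apart. NOP56 had 218, 215 and 226 RPKM in 3x nrpd1, against 159.9, 133 and 123 RPKM in 3x wt (log2 fold change 0.69, limma adjusted p = 0.0539). FIB2 had 175, 162 and 238 RPKM in 3x nrpd1, against 131, 108 and 85.8 RPKM in 3x wt (log2 fold change 0.84, limma adjusted p = 0.0839). FIB1 had 377, 373 and 437 RPKM in 3x nrpd1, against 289, 275 and 242 RPKM in 3x wt (log2 fold change 0.57, limma adjusted p = 0.131). In FIB1 and FIB2, replicate 3 of 3x nrpd1 was the highest of its group, and it was so too in NUC1, which had 329, 317 and 394 RPKM in 3x nrpd1, against 280.1, 242 and 219 RPKM in 3x wt (log2 fold change 0.50, limma adjusted p = 0.192).

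In the ribosomal RNA processing factors that library was the lowest of its group. PES had 76.7, 77.4 and 67.0 RPKM in 3x nrpd1, against 58.7, 51.6 and 53.2 RPKM in 3x wt (log2 fold change 0.45, limma adjusted p = 0.0789). BOP1 had 57.9, 49.3 and 38.8 RPKM in 3x nrpd1, against 47.6, 39.0 and 43.3 RPKM in 3x wt (log2 fold change 0.17, limma adjusted p = 0.476). APUM23 had 15.4, 12.4 and 7.59 RPKM in 3x nrpd1, against 11.6, 8.65 and 9.31 RPKM in 3x wt (log2 fold change 0.22, limma adjusted p = 0.497). BOP1 and APUM23 overlapped between the groups and PES did not. The transcripts of BOP1 (2641 bases) and APUM23 (3506 bases) are the longest of the 9 and those of FIB2 (1339 bases) and FIB1 (1380 bases) the shortest, and the level of 3x nrpd1 replicate 3 followed length as given above.

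So 2 of 9 members were higher at an adjusted p under 0.05, where 5.92% of 17913 tested genes were, and none of the 9 was past a log2 fold change of 1, where 3.18% of genes were called. At an unadjusted p under 0.05 there were 6 members, against 14.7% of genes. All 3x nrpd1 libraries lay above all 3x wt libraries for 7 of 9 members, against 19.6% of genes. The count of 2 rests on single libraries. Without 3x nrpd1 replicate 3 it was 6 (FIB1, FIB2, NOP56, NOP5-1, CBF5 and PES), where 13.5% of genes were higher. Leaving out replicate 1 of either group left 1 member (3.01% of genes higher without 3x nrpd1 replicate 1 and 2.63% without that of 3x wt). Leaving out replicate 2 or 3 of 3x wt left 0 members, with 1.01% and 1.15% of genes higher.

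The third question is whether the change between 3x and 2x embryos differed between the pollen donors. The interaction was the log2 fold change of 3x wt over 2x wt minus that of 3x nrpd1 over 2x nrpd1, fitted on all 12 libraries, so a negative value means a deeper fall with the wild-type donors. CBF5, NOP5-1 and NOP56 passed this test. Their interaction values were -1.02 for CBF5 (SE 0.231, limma adjusted p = 0.0145), -1.03 for NOP5-1 (SE 0.237, limma adjusted p = 0.0154) and -0.75 for NOP56 (SE 0.201, limma adjusted p = 0.0306). The other 6 members had negative values that did not pass. These were -0.46 for PES (limma adjusted p = 0.0591), -0.88 for FIB2 (0.0911), -0.62 for FIB1 (0.103), -0.65 for NUC1 (0.115), -0.29 for BOP1 (0.251) and -0.38 for APUM23 (0.313). The 3 of 9 members stand against 4.96% of 18561 tested genes that were lower at an adjusted p under 0.05, and 2 of 9 (CBF5 and NOP5-1) were also past -1, against 2.77%. The NOP56 call was the least firm. It was lost in 8 of 12 fits that left out 1 library, namely any of the 2x nrpd1 or 2x wt libraries and replicates 2 and 3 of 3x wt (limma adjusted p of 0.0510 to 0.0976), and with a replicate block (0.0519). The CBF5 and NOP5-1 calls were lost in 2 of 12, so that 0 members passed with replicate 2 or replicate 3 of 3x wt left out. In these fits 2.57% and 2.64% of genes were lower. Without 3x nrpd1 replicate 3 there were 6 (NUC1, FIB1, NOP56, NOP5-1, CBF5 and PES), where 9.60% of genes were lower. No member stayed past -1 without 2x nrpd1 replicate 1 or without 2x wt replicate 2, and 1 did without 2x nrpd1 replicate 3, without 3x nrpd1 replicate 1 or without 3x nrpd1 replicate 3. In the same order of fits 410, 385, 417, 569 and 559 genes were called lower, against 515 in the main fit.

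Within the nrpd1 donors, 3x nrpd1 against 2x nrpd1, no member passed the test. CBF5 had the most negative value, with 251, 207 and 176 RPKM in 3x nrpd1, against 279, 354 and 271 RPKM in 2x nrpd1 (log2 fold change -0.39, 95% confidence interval -0.83 to 0.06, limma adjusted p = 0.516). FIB1 lay at the other end, with 377, 373 and 437 RPKM in 3x nrpd1, against 422, 439 and 435 RPKM in 2x nrpd1 (interval of the log2 fold change -0.51 to 0.51). NOP56 had 218, 215 and 226 RPKM in 3x nrpd1, against 272, 298 and 288 RPKM in 2x nrpd1, without overlap as deposited (log2 fold change -0.25, interval -0.69 to 0.18). None of the 9 was lower at an unadjusted p under 0.05 either, against 3.08% of 17585 genes, and at an adjusted p limma found 0.0227% of genes lower and 0.961% higher. As deposited, all 3x nrpd1 libraries lay below all 2x nrpd1 libraries for 4 members (NOP56, CBF5, PES and BOP1), against 14.8% of genes, and for 2 members after scaling, against 9.56%.

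In diploid embryos, 2x nrpd1 against 2x wt, the members differed by less than the spread the test requires. NUC1 had 390.0, 409 and 435 RPKM in 2x nrpd1, against 458, 497 and 455 RPKM in 2x wt (log2 fold change -0.17, 95% confidence interval -0.38 to 0.05). APUM23 had 14.4, 16.4 and 14.8 RPKM in 2x nrpd1, against 16.5, 19.1 and 17.5 RPKM in 2x wt (log2 fold change -0.19, interval -0.43 to 0.05). CBF5 had 279, 354 and 271 RPKM in 2x nrpd1, against 317, 357 and 295 RPKM in 2x wt, and the groups overlapped (log2 fold change -0.08, interval -0.39 to 0.23). The log2 fold changes of all 9 ran between -0.19 and -0.04, with limma adjusted p of at least 0.885. No member and no gene passed the adjusted test in limma in the main fit. With all 12 libraries in 1 fit, 1 gene was called higher. The study's own test (DESeq2) lists 9 genes for this comparison, none of them a member. At an unadjusted p under 0.05 there were 0 members lower, against 2.43% of 17472 genes lower and 3.21% higher. As deposited, 4 members (NUC1, FIB1, BOP1 and APUM23) had all 2x nrpd1 libraries below all 2x wt libraries, against 6.96% of genes, and after scaling 0 did, against 5.47%.

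Several members have a paralog, and reads of 125 bases could be shared between them. FIB1 and FIB2 were 83.1% identical over their best aligned stretch, and NOP5-1 and NOP5-2 82.2%. The longest identical runs were 44 and 41 bases, shorter than 1 read, so a whole read could not match both copies exactly. The ratio of FIB1 to FIB2 was 2.21, 2.54 and 2.82 in 3x wt, against 1.92, 1.73 and 2.08 in 2x wt. FIB1 outnumbered FIB2 in every library, and the ratios of the groups did not overlap (log2 difference 0.40, two-sided exact permutation p = 0.1, the smallest that 3 against 3 libraries can give, adjusted p = 0.4 over 8 ratio comparisons). In 3x nrpd1 the ratio was 2.15, 2.31 and 1.83 and in 2x nrpd1 2.00, 1.79 and 1.93, with no comparison of them below an exact permutation p of 0.2.

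The ratio of NOP5-1 to NOP5-2 was 1.31, 1.29 and 1.30 in 3x wt, against 1.12, 1.23 and 1.20 in 2x wt (log2 difference 0.14, two-sided exact permutation p = 0.1, adjusted p = 0.4). In 3x nrpd1 it was 1.27, 1.11 and 1.49 and in 2x nrpd1 1.15, 1.20 and 1.30. Over all 12 libraries it stayed between 1.11 and 1.49. NUC1 and its paralog NUC2 moved apart. NUC2 had 4.07, 3.14 and 2.50 RPKM in 3x wt, against 2.23, 1.24 and 2.42 RPKM in 2x wt (log2 fold change 0.75, limma adjusted p = 0.0286). It was higher in 3x wt while NUC1 was lower, and the ratio of NUC1 to NUC2 was 68.7, 76.9 and 87.6 in 3x wt, against 206, 400 and 188 in 2x wt. The NUC2 change was 0.62 with RPKM as deposited (limma adjusted p = 0.0714), and NUC2 is a low gene in all 12 libraries. The ratio of NOP56 to NOP56-like, also a low gene, was 17.7, 32.9 and 18.3 in 3x wt, against 22.1, 18.7 and 18.9 in 2x wt, and these overlapped.

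**Figure D3:**
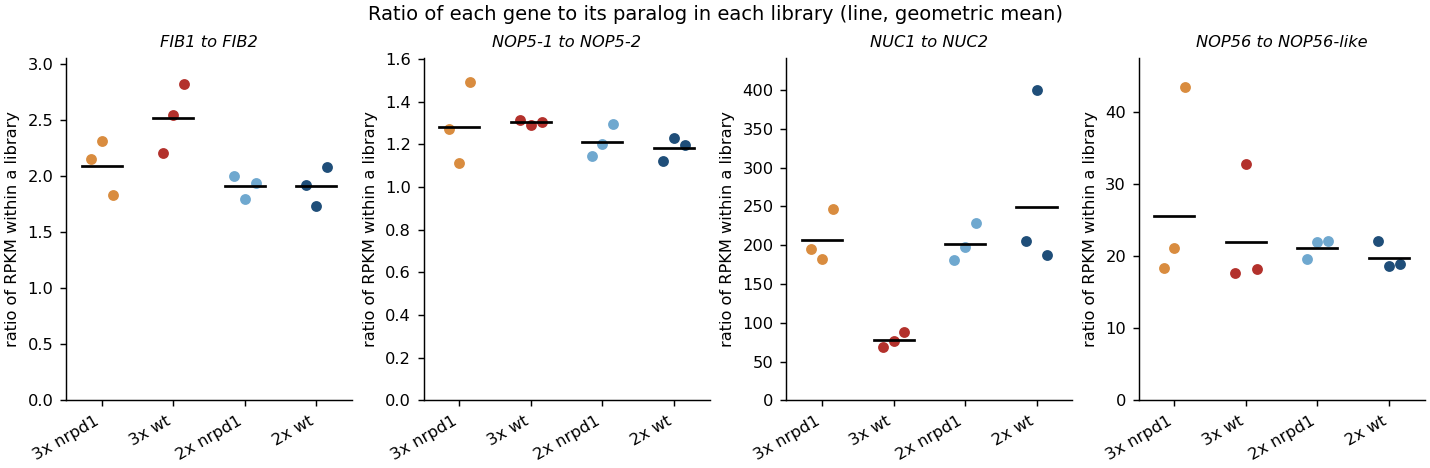
Ratio of the RPKM of each member to that of its paralog in every library (linear axis from 0, 1 point per library, line at the geometric mean), by group in the order 3x nrpd1, 3x wt, 2x nrpd1, 2x wt. FIB1 to FIB2 averaged 2.09, 2.51, 1.91 and 1.91 in these groups, and NUC1 to NUC2 was lowest in 3x wt.

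The rest of the pathway was read from lists of genes by role, 69 genes besides the members, of which 68 were tested. In 3x wt against 2x wt, 55 of these 68 were lower and 1 (NUC2) higher at an adjusted p under 0.05 in limma, with a median log2 fold change of -0.58. Among the other snoRNP and nucleolin genes, 7 of 10 tested were lower (FIB3 was listed at 0 in all 12 libraries). NOP5-2, the second NOP58 homolog, had 46.8, 34.4 and 36.3 RPKM in 3x wt, against 102, 108 and 101 RPKM in 2x wt (log2 fold change -1.24, limma adjusted p = 2.56e-05). NOP56-like (AT3G12860), a close relative of NOP56, had 9.05, 4.03 and 6.72 RPKM in 3x wt, against 13.5, 16.9 and 16.7 RPKM in 2x wt (log2 fold change -1.09). Both groups of values were apart, as for the members.

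Of the genes of the small subunit processome, the particle that makes the RNA of the small subunit, 22 of 27 fell and 0 rose, with a median of -0.56. The WD40 protein YAO and NOF1 had the lowest values in this list (-1.15 and -1.11), while IMP4 (-0.08) and the dimethylase DIM1A (0.02) did not pass. Of the genes of large subunit assembly and export, 22 of 25 fell and 0 rose, with a median of -0.62. The methyltransferase NOP2A (-1.17) and the nucleostemin-like GTPase NSN1 (-0.99) were lowest, and the helicase RH7 (-0.05) and the export adaptor NMD3 (0.18) did not pass. Of 6 RNA polymerase I subunits 4 fell, with a median of -0.44, and the large catalytic subunits NRPA2 (-0.60) and NRPA1 (-0.54) had the lowest values. A12 (0.06) and RPAC43 (0.11) did not pass.

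Genes whose product is named a ribosomal protein, leaving out those named as organellar, numbered 267, of which 253 were tested. Names alone may leave some organellar proteins in this list. In 3x wt against 2x wt, 145 were lower and 15 higher at an adjusted p under 0.05, with a median of -0.33. The shares over all tested genes were 24.6% lower and 26.7% higher. AT5G40040 (-1.83) and AT1G23410 (-1.53) had the lowest values. AT5G40040 is a low gene, with 1.59, 0.39 and 0 RPKM in 3x wt, against 2.82, 2.19 and 5.28 RPKM in 2x wt. The 2 highest, AT3G14595 (2.41) and AT1G53560 (2.10), are annotated only as members of the L18ae family. AT1G53560 is also low, with 2.35, 2.03 and 2.47 RPKM in 3x wt, against 0, 0.47 and 0.16 RPKM in 2x wt. The members' median of -0.77 was lower than that of each of these lists.

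In 3x nrpd1 against 3x wt fewer genes of these lists passed. At an adjusted p under 0.05 in limma, 1 of 10 snoRNP and nucleolin genes rose (NOP5-2, 0.93), 2 of 27 of the small subunit list (YAO, 0.79, and ENP1, 0.65), 4 of 25 of the large subunit list (PPAN, 0.82, NOP2A, 0.73, BRX1-1, 0.67, and NSN1, 0.65) and 0 of 6 polymerase subunits, where 5.92% of all tested genes rose. At an adjusted p 0 genes of these lists fell. Of 254 ribosomal protein genes 16 rose (6.3%, near the share over all genes) and 3 fell, with a median of 0.53. Without 3x nrpd1 replicate 3 the counts moved to 3 of the snoRNP genes, 6 of the small subunit genes and 87 of the ribosomal proteins. The large subunit count stayed at 4, while the share over all genes went up to 13.5%. This alternative was added after the data were seen. In 3x nrpd1 against 2x nrpd1 and in 2x nrpd1 against 2x wt 0 genes of any of these lists passed the adjusted test. The interaction was negative and past the adjusted threshold for 1 of 10 snoRNP and nucleolin genes (NOP5-2) and 1 of 27 of the small subunit list (ENP1). It was so for 3 of 25 of the large subunit list (NOP2A, NSN1 and PPAN) and 0 of 6 polymerase subunits. Of 254 ribosomal protein genes it was negative for 15 and positive for 2. Over all tested genes 4.96% were lower and 6.73% higher.

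**Figure D4:**
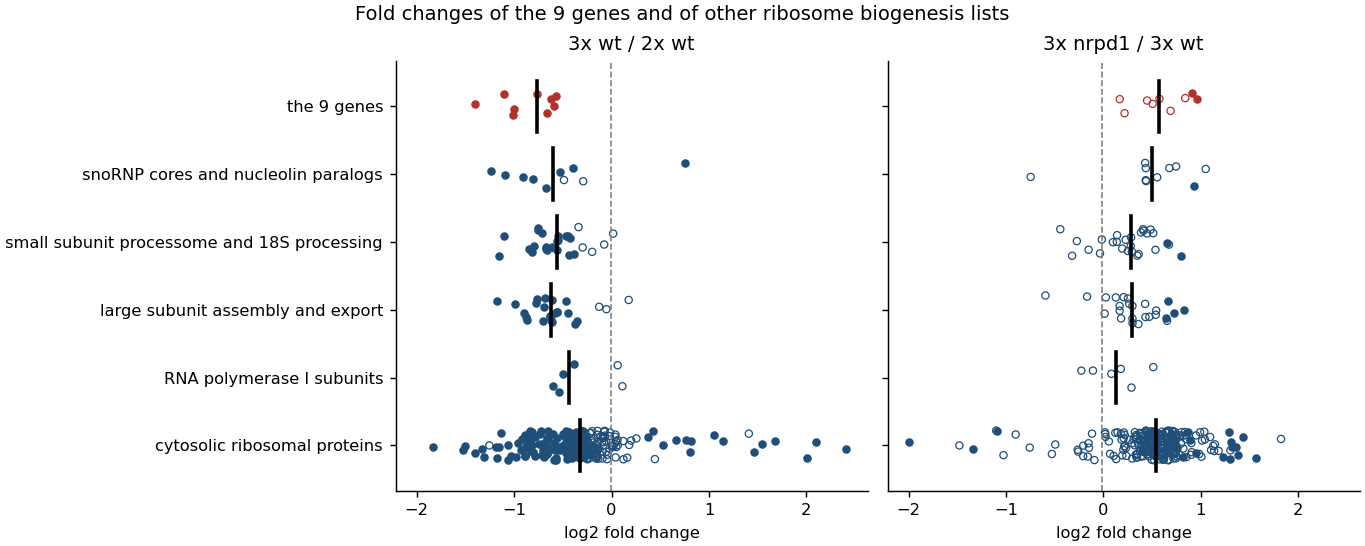
Log2 fold change (log2(RPKM + 0.5) scale, 1 point per gene, filled where the adjusted p is under 0.05, line at the median) of the 9 members and of the lists by role, in 3x wt versus 2x wt and in 3x nrpd1 versus 3x wt. In 3x wt versus 2x wt the medians run from -0.77 for the members to -0.33 for the ribosomal proteins, against -0.01 for all genes.

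Over the 12 libraries the members varied together to different degrees. The correlation of each with the mean of the other 8, as Pearson's r over 12 libraries that share their groups, depth and scaling, was 0.986 for NOP56, 0.979 for PES, 0.970 for NOP5-1, 0.968 for CBF5, 0.927 for NUC1, 0.926 for FIB2, 0.879 for FIB1, 0.831 for BOP1 and 0.710 for APUM23. The long transcripts BOP1 and APUM23 were thus the least like the rest. Outside the 9, and among 13452 genes with a mean of at least 5 RPKM, the genes most like the members' mean were AT1G53760 (r = 0.993), annotated as a K+-H+ exchange-like protein, NOP5-2 (0.983), LSMT-L (0.982), a methyltransferase named for Rubisco, SVR7 (0.981), a pentatricopeptide repeat protein, and AT3G51270 (0.981), annotated as a protein kinase. AT1G53760 had mean levels of 11.1 RPKM in 3x nrpd1, 6.57 RPKM in 3x wt, 14.2 RPKM in 2x nrpd1 and 15.5 RPKM in 2x wt. Of the lists, the median r was 0.894 for large subunit assembly, 0.823 for the small subunit list, 0.772 for the snoRNP and nucleolin genes, 0.557 for ribosomal proteins and 0.420 for polymerase I subunits, against 0.01 over all genes searched.

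The promoter letters printed above can be read against all genes. Leaving the members out, 386 tested genes had both a telo box and a site II element in the same window, and their median log2 fold change in 3x wt against 2x wt was -0.25, with 42.0% lower and 9.07% higher at an adjusted p under 0.05. Genes of the lists were not left out. Both elements were in 67 of 267 ribosomal protein, 5 of 25 large subunit, 6 of 27 small subunit and 2 of 11 snoRNP and nucleolin windows. The share of the 42.0% that is of this pathway was not tested. Genes with a telo box alone (469 genes) had a median of -0.13 and 34.1% lower. Genes with a site II element alone (4191 genes) had a median of -0.10 and 30.7% lower, and genes with neither (12210 genes) had 0.05, with 21.6% lower and 29.9% higher. In 3x nrpd1 against 3x wt the median was 0.26 for genes with both and -0.05 for genes with neither, while 6.32% and 5.61% of them were higher at an adjusted p under 0.05. FIB2, whose window held neither, had a log2 fold change of -1.01 in 3x wt against 2x wt, more negative than FIB1 (-0.62), whose window held both. Whether FIB2 has a telo box across the edge of its window was not searched. Of the lists, a telo box was in 36.0% of the large subunit genes, 29.6% of the small subunit genes, 45.5% of the snoRNP and nucleolin genes, 30.7% of the ribosomal proteins and 0 of 6 polymerase I subunits.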

How the data were processed

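Poly(A) RNA was sequenced by the authors as 125-base paired reads, trimmed with Trimmomatic, aligned by TopHat2 against a TAIR10 genome with the ribosomal RNA genes masked, and counted with GFOLD. The values the authors deposited are RPKM per gene and library, and how they were computed from the counts is not given in the sources used here. Groups and replicates came from the labels, and replicates were separate crosses.

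As RPKM are not counts, limma 3.58.1 (statmod 1.5.0, R 4.3.3) was run on log2(RPKM + 0.5) with a variance trend, two-sided, after median-ratio scaling, on genes that reached 1 RPKM in 3 or more libraries. The 6 libraries of the 2 groups entered each fit, and all 12 the interaction. A call needed a log2 fold change past 1 and a Benjamini-Hochberg adjusted p under 0.05. Ratios of paralogs were compared by exact permutation. Depth was estimated from low values of single-exon genes, of which 53% to 65% were whole reads within 0.05. It is lower than the mapped reads the study lists and covers counting error only. Positions and promoters come from RefSeq TAIR10.1, and lists, ratios and motifs were handled in Python 3.11.15 (numpy 2.4.6, pandas 2.3.3, scipy 1.17.1, biopython 1.88, matplotlib 3.10.9).

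Members and lists were chosen with earlier results of these data known. All 9 members were named in every comparison. From each list the 2 genes with the lowest and the 2 with the highest log2 fold change in 3x wt versus 2x wt were named, with the paralogs and the 5 genes most like the members. ENP1, PPAN, BRX1-1 and the marker genes were named after their values were seen. The alternatives tried were other pseudocounts, filters, scalings and moderation, all 12 libraries in 1 fit, a replicate block, removal of the length trend, and leaving out each library. The scripts were tested on simulated data.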

Additional observations from a re-analysis of the deposited data

Results flagged for a closer look

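The change between 3x and 2x embryos differed between the wt and nrpd1 pollen donors for 3 members by the interaction test in limma. The difference, wt minus nrpd1 on the log2 scale, was -0.75 for NOP56, -1.03 for NOP5-1 and -1.02 for CBF5. The NOP56 call was lost in 8 of 12 fits that left out 1 library (limma adjusted p of 0.0510 to 0.0976) and with the replicate block (0.0519), and the other 2 calls were each lost in 2 of 12. The fibrillarin genes FIB2 (-0.88) and FIB1 (-0.62), of the same box C/D particles as NOP56 and NOP5-1, did not pass (limma adjusted p of 0.0911 and 0.103). Both passed with RPKM as deposited (limma adjusted p of 0.0298 and 0.0149). They also passed with quantile normalization (0.0206 and 0.0325) and with the length trend removed (0.0412 and 0.0287). By the labels, embryos of 8 DAP were set against embryos of 6 DAP for both kinds of donor.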

How the results depend on the processing

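In 3x wt versus 2x wt all 9 members stayed lower at an adjusted p under 0.05 under every alternative, and 2 to 4 were called with libraries left out. Of all genes, 678 to 1031 were called lower with libraries left out, against 872 in the main fit. With the length trend removed NOP56 (-0.99) fell short of the fold threshold, and 858 genes were called lower. In 3x nrpd1 versus 3x wt the members higher at an adjusted p were 5 with RPKM as deposited, 4 with quantile normalization, 6 with all 12 libraries in 1 fit, 6 with the length trend removed and 0 to 6 with libraries left out, and those called were 1 with the length trend removed and 0 to 2 with libraries left out. Of all genes tested, 6.46% were higher as deposited, 10.2% with quantile normalization, 13.7% with all 12 libraries and 10.2% with the length trend removed. This share was 1.01% to 13.5% with libraries left out and 5.92% in the main fit. Genes called higher numbered 540 with the length trend removed, 176 to 548 with libraries left out and 570 in the main fit. In the interaction the members lower were 7 as deposited, 7 with quantile normalization, 6 with the length trend removed and 0 to 6 with libraries left out, and those called were 1 with quantile normalization and 0 to 3 with libraries left out. In the single-library fits a group of 2 is assumed to vary like the others.

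Log2 fold changes of members that did not pass changed sign with libraries left out in 3x nrpd1 versus 2x nrpd1 for FIB1 (-0.18 to 0.095, and 0.014 with all 12 libraries in 1 fit), FIB2 (-0.40 to 0.037) and NOP5-1 (-0.22 to 0.064), and in 2x nrpd1 versus 2x wt for FIB2 (-0.16 to 0.037), CBF5 (-0.22 to 0.014) and PES (-0.073 to 0.015). So did log2 ratio differences near 0, which ran from -0.069 to 0.064 for FIB1 to FIB2 in 2x nrpd1 versus 2x wt, and for NOP5-1 to NOP5-2 from -0.13 to 0.080 in 3x nrpd1 versus 3x wt, -0.029 to 0.18 in 3x nrpd1 versus 2x nrpd1 and -0.010 to 0.079 in 2x nrpd1 versus 2x wt. The cause was not tested.

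List counts were repeated as alternatives added after the data were seen. In 3x nrpd1 versus 3x wt, with RPKM as deposited, with the length trend removed and without 3x nrpd1 replicate 3, the genes higher were 1, 6 and 4 (large subunit), 1, 5 and 6 (small subunit), 3, 2 and 3 (snoRNP and nucleolin), and 48, 49 and 87 (ribosomal proteins). In the interaction the genes lower were 3, 6 and 6, then 2, 3 and 2, then 3, 2 and 3, and 42, 44 and 45 in the same lists. Over all genes, in the same order of settings, 6.46%, 10.2% and 13.5% were higher in 3x nrpd1 versus 3x wt. For the interaction, 5.87%, 7.88% and 9.60% of all genes were lower.

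Over all genes, 3x wt versus 2x wt gave 1988 genes called higher and 872 lower, against 1685 and 1292 as deposited and 1715 and 1233 with quantile normalization. The interaction gave 988 higher and 515 lower, against 934 and 742 with quantile normalization. Deviations of same-numbered replicates had correlations of -0.136 to 0.26, and whether these replicates share more than a number was not tested. With the replicate block 2 members passed the interaction at an adjusted p, since NOP56 (-0.75) then had 0.0519, and 2 remained called. It changed no other member's call.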
